A study of Arabis alpina with 12 samples.

Results

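Indole glucosinolates are sulfur-containing defence compounds that plants of the cabbage order make from the amino acid tryptophan. The 6 genes of their synthesis described here, some of them shared with the synthesis of other glucosinolates, were measured in Arabis alpina, a perennial relative of Arabidopsis. They are CYP79B2 (Aa_G486300h1), CYP79B3 (Aa_G407280h1), CYP83B1 (Aa_G127450h1, orthologue AT4G31500), GSTF9 (Aa_G85970h1), SOT16 (Aa_G98840h1, orthologue AT1G74100) and AKN2 (Aa_G486320h1). These 6 of the 34220 genes in the count table were chosen by name from the authors' deposited lists of genes that differed between the genotypes. All 6 were in the list of genes lower in Aatoe2_IL apices, and CYP79B2, GSTF9 and SOT16 were also in the list of genes lower in Aatoe2_IL V3 buds. The genotype difference in the apex therefore chose all 6 genes and that in buds chose 3 of them, and these differences are given as a description with no p-value for single genes. Counts of these genes past a threshold there restate the choice.

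Transcripts were sequenced from dissected shoot apices and dissected V3 buds of wild type and of Aatoe2_IL, both in the accession Pajares, with 3 libraries in each of the 4 groups. All plants had grown for 8 weeks in long days and then for 8 weeks in the cold (vernalization) under short days, so that no group was free of cold treatment. Aatoe2_IL is the line used to study AaTOE2, which encodes a transcription factor of the APETALA2-like kind, and the study asked about the part of AaTOE2 in flowering during vernalization, from the apices, and in axillary branching, from the buds. What is altered in the line was not stated in the labels and this was the only Aatoe2 line measured, so that effects of AaTOE2 and other differences between the lines cannot be told apart. Replicates are numbered in the labels, which leave it unsaid whether each came from its own plants. The p-values therefore cover the spread among these libraries, which may be technical. Reads in genes numbered from 9411616 to 12309478 per library. No defining marker of shoot apices or of V3 buds was among the genes read here, so the labelled tissues were not checked.

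The pathway is known from Arabidopsis, and the roles given here are those of the Arabidopsis genes. CYP79B2 and CYP79B3 turn tryptophan into indole-3-acetaldoxime, which CYP83B1 oxidizes to a reactive compound that is joined to glutathione. The conjugate is trimmed, cleaved by the lyase SUR1, glucosylated, and finally sulfated by sulfotransferases such as SOT16, with a sulfate donor that APS kinases such as AKN2 make. Indole-3-acetaldoxime is also a precursor of the defence compound camalexin and a source of auxin in that species.

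Replicate 1 stood apart from the other libraries of its group for these genes. It was the highest of the 3 libraries in all 4 groups for 4 of the 6 genes (CYP79B2, CYP83B1, GSTF9 and AKN2), against 4.37% of the 19520 genes tested. SOT16 had its highest value in replicate 1 in 3 groups, and CYP79B3 in the 2 groups in which it had any count. In Aatoe2_IL apices replicate 1 held 12.6 times the mean CPM of the other two libraries for CYP79B2, 4.01 times for AKN2, 3.72 times for SOT16, 2.64 times for GSTF9 and 2.50 times for CYP83B1. The same ratio in wild-type apices was smaller for each of these 5 genes and ran from 1.43 for GSTF9 to 2.47 for SOT16. CPM (a unit that scales each count to the total of the genes tested in its library) is given after TMM normalization. Replicate 1 of wild type also had the largest share of reads outside genes in both tissues (18.8% in the apex and 21.5% in buds), whereas in Aatoe2_IL replicate 2 had it (21.1% and 19.0%). The part of these shares in the high values was not tested. Results are therefore also given without all 4 replicate 1 libraries, an alternative chosen after seeing the data and because these libraries were high for these genes. It lowers the spread within groups by its construction and gives no independent support.

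**Figure D1:**
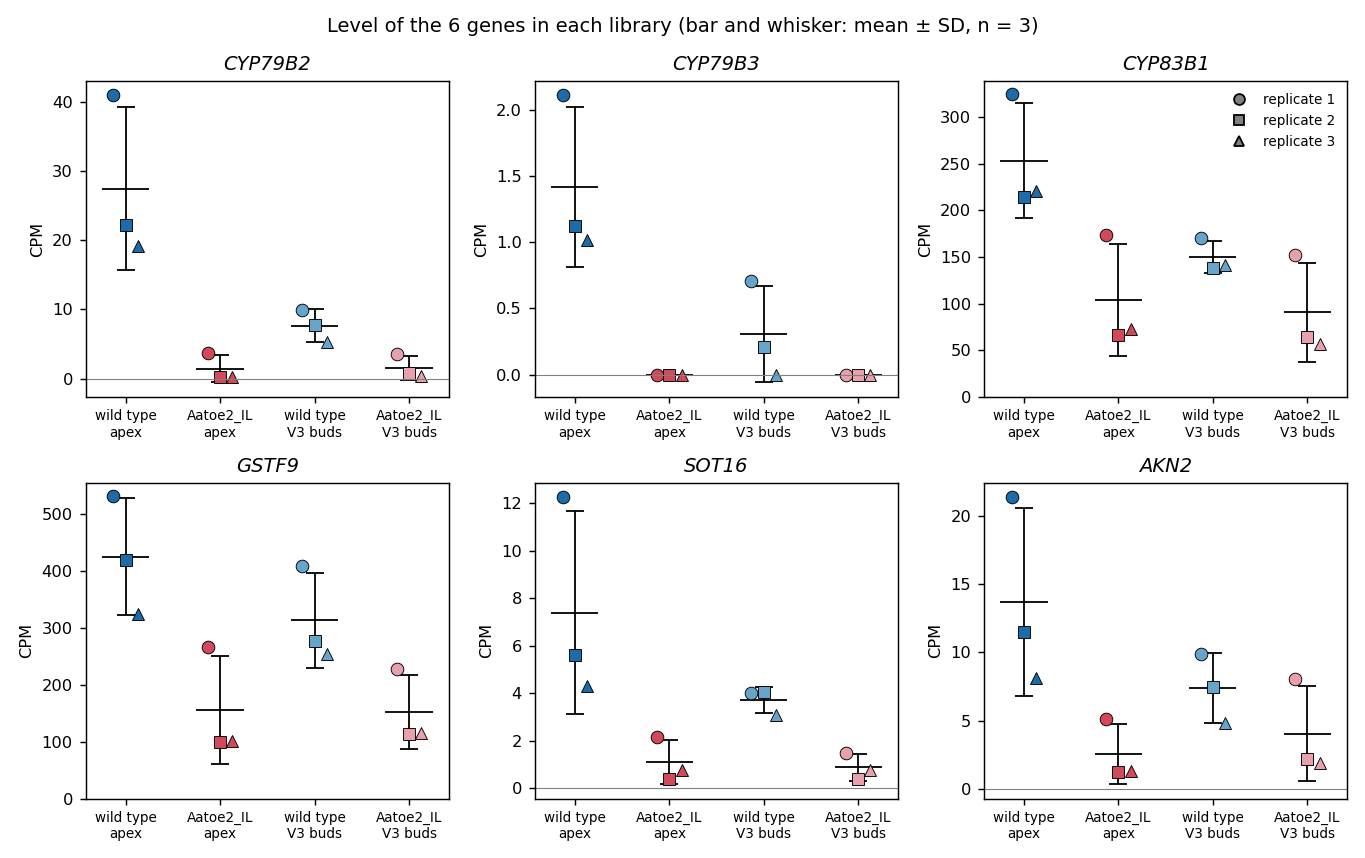
Level of each gene in every library, in CPM on a linear axis with a scale of its own for each gene; points are libraries, marked by replicate number, and bars with whiskers are the mean ± SD (n = 3). In apices each of the 6 genes has every Aatoe2_IL library below every wild-type library, and the circle of replicate 1 is the highest point of its group in most panels.

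In the apex the entry step of the pathway had the largest fitted fold difference between the genotypes. CYP79B2 had 40.9, 22.1 and 19.2 CPM in wild-type apex replicates 1, 2 and 3, and 3.74, 0.306 and 0.286 CPM in those of Aatoe2_IL. The highest Aatoe2_IL library thus lay far below the lowest wild-type library, and replicates 2 and 3 of Aatoe2_IL held only 3 reads each. The wild-type mean was 27.4 ± 11.8 CPM and that of Aatoe2_IL 1.44 ± 1.99 CPM (SD, n = 3), or 5.27% of the wild-type mean, with a fitted log2 fold change of -4.17 (SE 0.65). CYP79B3, which encodes the second enzyme of this step, was a low-count gene with 27, 13 and 12 reads in the 3 wild-type apex libraries (1.41 ± 0.602 CPM). It had 0 counts in all 3 Aatoe2_IL apex libraries, where a floor of 3 counts over the group allows up to 0.0943 CPM. Against that floor CYP79B3 was at least 15.2-fold lower in Aatoe2_IL. The gene passed the filter on low counts only through wild-type apices, so that it had to be higher there. CYP79B2 and CYP79B3 are close paralogs, and reads common to both may have been split or dropped, so their separate levels are uncertain. In bulk tissue, fewer cells that express these genes and less RNA per cell cannot be told apart.

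The step after it differed less. CYP83B1, the oxime-metabolizing cytochrome P450 of the indole branch, had 324.2, 214.5 and 220.7 CPM in wild-type apices and 173.6, 66.4 and 72.6 CPM in Aatoe2_IL apices. The groups did not overlap, but replicate 1 of Aatoe2_IL was much nearer to wild type than the other two libraries were. Its log2 fold change was -1.28 (SE 0.37), and the Aatoe2_IL mean was 41.2% of wild type. GSTF9, a glutathione S-transferase that has been placed at the conjugation step, had 531.1, 419.7 and 324.4 CPM in wild-type libraries, beside 265.8, 100.1 and 100.9 CPM for Aatoe2_IL. The pattern was that of CYP83B1, with 1 high and 2 low Aatoe2_IL libraries, and a log2 fold change of -1.45 (SE 0.36).

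The final step and its sulfate supply lay between these. SOT16, a sulfotransferase that prefers indole and aromatic desulfoglucosinolates, had 12.3, 5.62 and 4.31 CPM in wild-type apices and 2.17, 0.408 and 0.762 CPM in Aatoe2_IL apices. Every Aatoe2_IL library was below every wild-type library, and the log2 fold change was -2.68 (SE 0.51). AKN2, an APS kinase, had 21.4, 11.5 and 8.11 CPM in wild-type libraries, beside 5.13, 1.22 and 1.33 CPM for Aatoe2_IL. Here too the groups did not overlap, and the log2 fold change was -2.38 (SE 0.57).

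As a description of how the choice appears in the refitted data, 3 of the 6 genes (CYP79B2, CYP79B3 and SOT16) had an edgeR adjusted p under 0.05 in the apex, where 0.809% of all genes tested did so and were lower. The groups did not overlap for 6 of 6 genes, against 10.8% of all genes tested that lay lower in Aatoe2_IL without overlap. The median log2 fold change of the 6 genes was -2.53, also with CYP79B3 at its bound, and that of all genes tested was 0.00. The number of genes called was 6 without Aatoe2_IL apex replicate 1, and 1 without wild-type apex replicate 2, Aatoe2_IL apex replicate 2 or Aatoe2_IL apex replicate 3. Without all 4 replicate 1 libraries it was 6, and the log2 fold change of CYP79B2 was -6.07, that of GSTF9 -1.89 and that of CYP83B1 -1.65. Genes called in all, in either direction, numbered 215 in the main fit. They numbered 698 without Aatoe2_IL apex replicate 1 and 3481 without all 4 replicate 1 libraries. Replicate 1 was the highest Aatoe2_IL apex library for each of the genes with counts there, so leaving it out favours more calls by its construction. In the authors' deposited table the fold of CYP79B2 in the apex was 0.053 and that of CYP83B1, the nearest of the 6 to the authors' limit in this tissue, was 0.414.

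**Figure D2:**
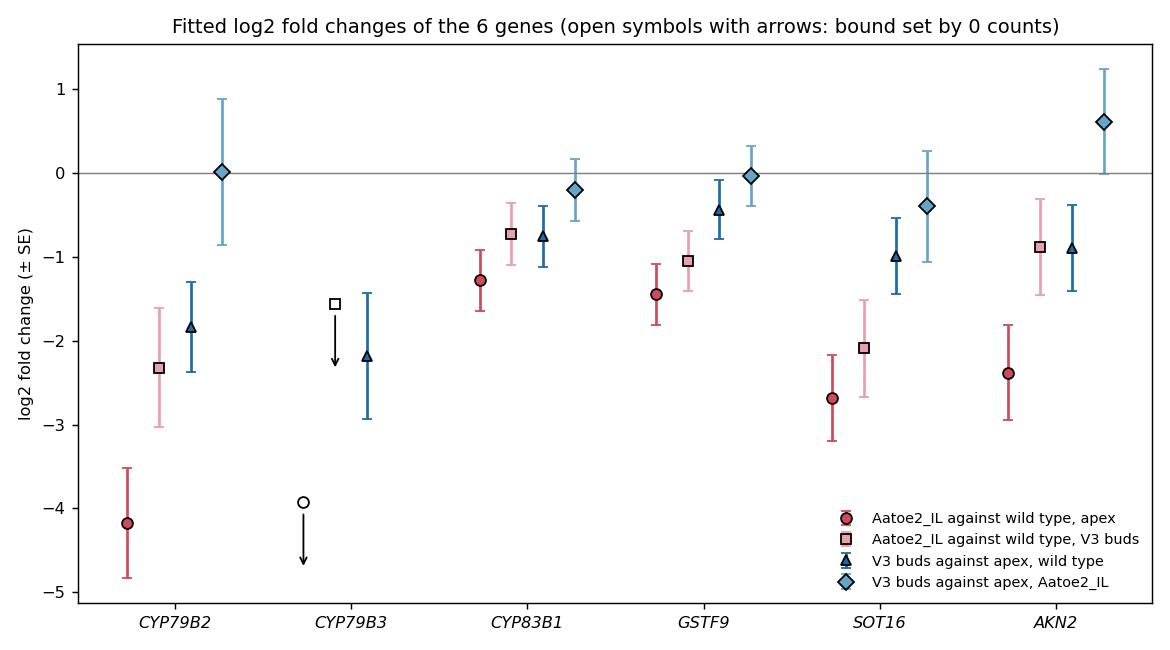
Fitted log2 fold changes with their SE for the 6 genes in 4 comparisons; the open symbols with arrows are the bounds of CYP79B3, which had 0 counts in Aatoe2_IL. All apex genotype values lie below 0, the bud genotype values of genes with counts in both genotypes lie nearer to 0 than those of the apex, and the tissue values lie below 0 in wild type and around 0 in Aatoe2_IL.

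In V3 buds all 6 genes again had lower means in Aatoe2_IL, and the fitted folds of the 5 genes with counts in both genotypes were smaller than in the apex. CYP79B2 had 9.98, 7.70 and 5.30 CPM in wild-type buds and 3.55, 0.758 and 0.328 CPM in Aatoe2_IL buds. The groups did not overlap, and the log2 fold change was -2.32 (SE 0.70). SOT16 had 4.03, 4.06 and 3.10 CPM in wild-type buds and 1.51, 0.379 and 0.765 CPM in Aatoe2_IL buds. Its wild-type libraries were close together, and its log2 fold change was -2.09 (SE 0.58), with no overlap. GSTF9 had 408.5, 277.5 and 253.9 CPM in wild-type buds and 227.8, 112.9 and 115.2 CPM in Aatoe2_IL buds. It too showed no overlap, and its log2 fold change was -1.04 (SE 0.36). These 3 genes had been chosen on this difference as well.

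CYP83B1, AKN2 and CYP79B3 were not in the authors' bud list, and none of them passed in buds here. Their absence from that list means that they had missed the authors' limits on these same counts. The lack of calls therefore partly restates it. The same holds below for other genes in a tissue where the authors did not list them. CYP83B1 had 170.0, 138.1 and 141.6 CPM in wild-type buds and 151.8, 64.0 and 56.4 CPM in Aatoe2_IL buds. Replicate 1 of Aatoe2_IL lay within the wild-type values and the other two libraries lay well below them. Its log2 fold change was -0.73 (SE 0.37; adjusted p = 0.296, edgeR). AKN2 had 9.88, 7.49 and 4.80 CPM in wild-type buds and 8.07, 2.18 and 1.86 CPM in Aatoe2_IL buds, and again replicate 1 of Aatoe2_IL alone overlapped wild type. Its log2 fold change was -0.88 (SE 0.57; adjusted p = 0.429, edgeR). CYP79B3 had 7, 2 and 0 reads in wild-type buds and 0 in each Aatoe2_IL bud library, which makes it at least 2.95-fold lower over the group (edgeR adjusted p = 0.201).

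Over the 6 genes, 0 had an edgeR adjusted p under 0.05 in buds, where 1.97% of all genes tested passed and were lower. At an unadjusted p under 0.05 there were 4 (CYP79B2, CYP79B3, GSTF9 and SOT16), and DESeq2 called 1 (SOT16). The groups did not overlap for 3 of the 6, against 10.8% of all genes tested. These were CYP79B2, GSTF9 and SOT16, the genes chosen on this difference, and the 3 genes not chosen on it overlapped, so nothing is read from these counts or from the call of SOT16. The median log2 fold change was -1.57, or -1.30 with CYP79B3 at its bound, against -0.01 for all genes tested. Without Aatoe2_IL bud replicate 1, 4 genes were called, with CYP83B1 at a log2 fold change of -1.31 and an edgeR adjusted p of 0.0389. Over all alternatives for CYP83B1 in buds that p ranged from 2.48e-06 to 0.680. Replicate 1 was the highest Aatoe2_IL bud library for each of the genes with counts there. Leaving it out therefore favours more calls by its construction, and nothing is read from that rise. Without all 4 replicate 1 libraries 5 genes were called, all but CYP79B3, and the log2 fold change was -1.21 for CYP83B1 and -1.59 for AKN2. Genes called in all, in either direction, numbered 967 in the main fit. They numbered 1017 without Aatoe2_IL bud replicate 1 and 2117 without all 4 replicate 1 libraries. Among genes near the authors' limit of a fold of 2, GSTF9 in buds lay just inside, with a fold of 0.488 in the authors' deposited table. AKN2 and CYP83B1 in buds lay just outside, with ratios of the size-factor scaled means of 0.549 and 0.608.

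The means were lower in Aatoe2_IL in both tissues for all 6 genes. Among the 5 genes with counts in every group the fitted fold was larger in the apex for each. The difference between the log2 effects, buds minus apex, was 1.85 for CYP79B2 (SE 1.02), 1.50 for AKN2 (SE 0.81), 0.60 for SOT16 (SE 0.82), 0.55 for CYP83B1 (SE 0.51) and 0.40 for GSTF9 (SE 0.50). Because the apex difference chose the genes, a larger effect there is built into the choice. None of the 6 passed edgeR's quasi-likelihood test of this difference, where 1.03% of all genes tested did, and 0 had an unadjusted p under 0.05 and 0 passed DESeq2. CYP79B3 could not pass edgeR's test, because 0 counts in both Aatoe2_IL groups leave its difference without a usable estimate. With the replicate number as a block within each genotype, 4 of the 6 passed (CYP79B2, AKN2, CYP83B1 and GSTF9), with edgeR adjusted p-values from 0.00270 to 0.0167. That setting called 1986 genes in all, against 202 in the main fit. Replicate numbers were taken as pairs of tissues in Aatoe2_IL, from the data alone, but were not established as pairs in wild type. Without Aatoe2_IL bud replicate 1 the difference was -0.04 for CYP83B1, -0.01 for GSTF9 and -0.02 for SOT16. Without Aatoe2_IL apex replicate 1 it was 1.14, 1.04 and 1.54 for these genes in the same order. Without both Aatoe2_IL replicate 1 libraries it was 0.55, 0.62 and 0.92. Without all 4 replicate 1 libraries 1 gene, GSTF9, passed at 0.67, among 1096 genes called in all.

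Between tissues of the wild type, the 6 genes had lower means in V3 buds than in the apex. This difference was not used to choose the genes, but it shares the wild-type apex libraries with the difference that was, and high values there favour both. The mean of CYP79B2 in wild-type buds was 7.66 ± 2.34 CPM (SD, n = 3), or 28.0% of that in wild-type apices. Every bud library was below every apex library, and CYP79B2 had a log2 fold change of -1.84, lower in buds (SE 0.54; adjusted p = 0.0388, edgeR). That call was lost when any one of the 6 wild-type libraries was left out, with adjusted p-values from 0.0517 without bud replicate 1 to 0.128 without apex replicate 1, and with DESeq2. Over all alternatives its adjusted p ranged from 1.00e-07 to 0.252.

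The other five genes did not pass in wild type. CYP79B3 had a log2 fold change of -2.18 (SE 0.75; adjusted p = 0.0953, edgeR), from 52 reads in the 3 apex libraries and 9 in the 3 bud libraries. Because CYP79B3 passed the filter only through wild-type apices, a lower value in buds was favoured by the filter, and its calls and lack of overlap here support nothing. SOT16 had -0.99 (SE 0.45; adjusted p = 0.182, edgeR), AKN2 -0.89 (SE 0.51; adjusted p = 0.299, edgeR), CYP83B1 -0.76 (SE 0.36; adjusted p = 0.207, edgeR) and GSTF9 -0.44 (SE 0.35; adjusted p = 0.467, edgeR). Bud and apex libraries did not overlap for CYP79B2, CYP79B3, CYP83B1 and SOT16, 4 of 6 genes, against 14.2% of all genes tested. They overlapped for GSTF9 and AKN2. The share called was 1 of 6, against 6.33% of all genes tested that passed and were lower in buds, and the median log2 fold change was -0.94 against 0.01. Without wild-type bud replicate 1 the gene called was CYP79B3 (log2 fold change -3.65, edgeR adjusted p = 0.0393) in place of CYP79B2, and without all 4 replicate 1 libraries 4 genes were called (CYP79B2, CYP79B3, CYP83B1 and GSTF9). Genes called in all, in either direction, numbered 2184 in the main fit. They numbered 1821 without wild-type bud replicate 1 and 2833 without all 4 replicate 1 libraries. The adjusted p of CYP79B3 ranged from 0.0180 to 0.229 over its alternatives.

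In Aatoe2_IL the tissues were not separated by these genes. Bud and apex libraries overlapped for all 6, and CYP79B3 had 0 counts in both groups. CYP79B2 had a mean of 1.44 ± 1.99 CPM in the apex and 1.54 ± 1.75 CPM in buds, a log2 fold change of 0.01 (SE 0.87; adjusted p = 0.998, edgeR). The values were -0.04 for GSTF9 (SE 0.36), -0.20 for CYP83B1 (SE 0.37), -0.39 for SOT16 (SE 0.66) and 0.61 for AKN2 (SE 0.63), with edgeR adjusted p-values from 0.748 for AKN2 to 0.981 for GSTF9. These values come from the main fit, which took no libraries as pairs. With the replicate number as a block within each genotype, 0 of the 6 were called, where 2378 genes in all were. Without pairs none of the 6 was called by edgeR or DESeq2, nor had an unadjusted p under 0.05, where 5.67% of all genes tested passed edgeR. CYP79B3 could not be called here, having 0 counts in both groups. The sign turned for CYP79B2, CYP83B1, GSTF9, SOT16 and AKN2 when single libraries were left out, so that no direction is given.

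In order of mean level, wild-type apices were the highest group for all 6 genes and wild-type buds came next. The choice of the genes favoured high values in wild-type apices, so that their first place is partly built in. Both Aatoe2_IL groups came last for every gene and overlapped each other. For AKN2, CYP83B1 and CYP79B3 the Aatoe2_IL buds also overlapped the wild-type buds, and for GSTF9 and AKN2 the wild-type groups overlapped each other. Summed over the 6 genes, the level ran from 577.7 to 931.9 CPM in wild-type apices, from 408.7 to 603.1 CPM in wild-type buds, from 168.4 to 450.5 CPM in Aatoe2_IL apices and from 174.6 to 392.7 CPM in Aatoe2_IL buds. Such a sum is of reads, not of levels per length, and levels of different genes were not compared because gene lengths were not given in the files.

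**Figure D3:**
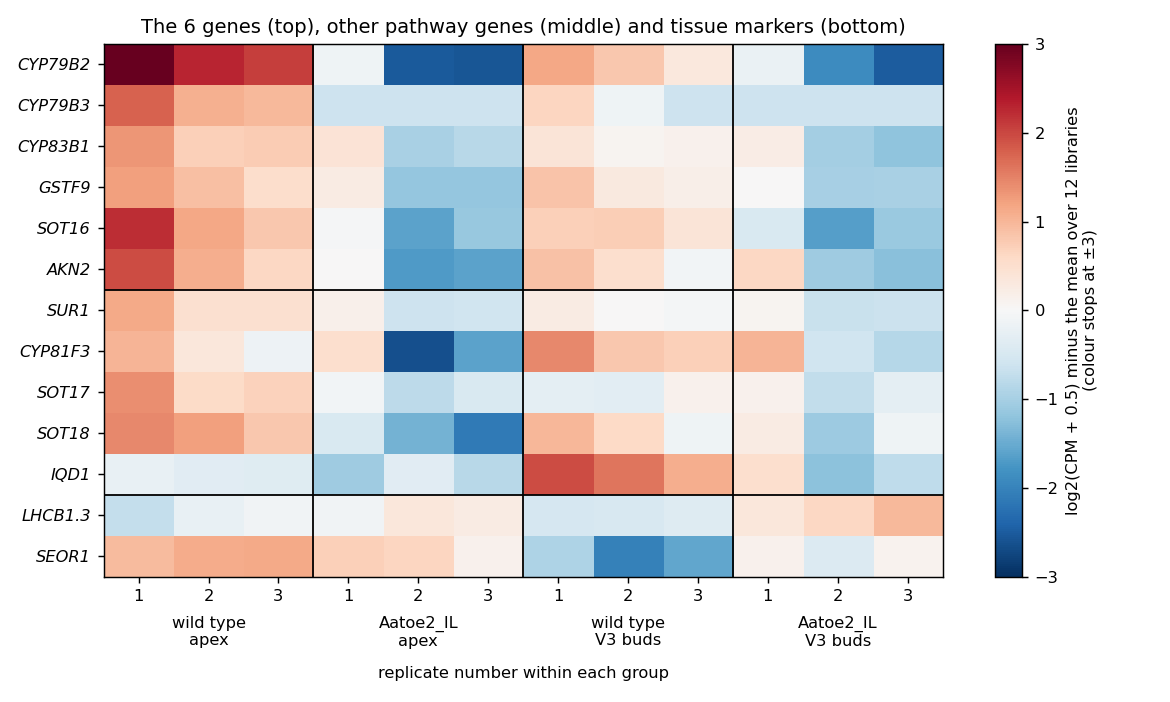
Level of the 6 genes, of 5 other glucosinolate genes and of 2 tissue markers in each library, as log2(CPM + 0.5) minus the mean of that gene over the 12 libraries, with red above and blue below that mean. Wild-type apices are red and Aatoe2_IL replicates 2 and 3 are blue for the top 6 genes, while replicate 1 of Aatoe2_IL lies nearer to the mean except for CYP79B3, which has 0 counts there.

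The levels of the genes varied together across libraries. Over the 12 libraries Pearson's r of log2(CPM + 0.5) between pairs of the 6 genes lay between 0.780 and 0.973, and between 0.932 and 0.973 for the 10 pairs without CYP79B3. These points share libraries and depth, and the 4 groups differ in level, so the correlation across all libraries largely restates the group differences. After each group mean was taken away, r for those 10 pairs lay between 0.848 and 0.977. Without the 4 replicate 1 libraries, with 8 libraries left, the same deviations gave values from -0.311 to 0.802. So few libraries per group, left after removal of those high for these genes, cannot show what the joint variation within groups rests on. Across levels of those 8 libraries r stayed between 0.940 and 0.989.

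The identifiers of CYP79B2 (Aa_G486300h1) and AKN2 (Aa_G486320h1) lie close together in number, and their Arabidopsis orthologues (AT4G39950 and AT4G39940) have adjoining locus numbers. SOT16 (Aa_G98840h1) and its paralog SOT18 (Aa_G98830h1) are likewise close in both species. The position of these genes in the Arabis alpina genome was not analysed here.

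Of 16 genes listed for the indole glucosinolate pathway, 7 were paired with an identifier, because names were given only for genes in the authors' lists. Besides 5 of the 6 genes above these were SUR1 and CYP81F3, both also in the authors' list of genes lower in Aatoe2_IL apices. SUR1 (Aa_G194680h1), the C-S lyase that all glucosinolates share, had 211.0, 132.7 and 133.4 CPM in wild-type apices and 106.8, 62.4 and 62.8 CPM in Aatoe2_IL apices, a log2 fold change of -1.04 (SE 0.24). In buds, where the authors did not list it, SUR1 had a mean of 100.8 ± 11.7 CPM for wild type, beside 74.2 ± 23.9 CPM for Aatoe2_IL (SD, n = 3), with a log2 fold change of -0.44 (SE 0.24; adjusted p = 0.340, edgeR). Between wild-type tissues SUR1 had a log2 fold change of -0.66 (SE 0.24; adjusted p = 0.0965, edgeR), a comparison that shares the wild-type apex libraries on which it was listed. CYP81F3 (Aa_G672590h1), which hydroxylates the indole ring of the finished compound, had 47.6, 29.6 and 20.8 CPM in wild-type apices and 33.1, 3.36 and 7.33 CPM in Aatoe2_IL apices. Replicate 1 of Aatoe2_IL lay among the wild-type values, and the log2 fold change was -1.14 (SE 0.61). In buds it was -0.94 (SE 0.59; adjusted p = 0.409, edgeR).

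Among 8 listed regulators of the pathway only IQD1 (Aa_G34680h1), a calmodulin-binding protein that promotes glucosinolate accumulation in Arabidopsis, was paired with an identifier. It had 4.94, 3.75 and 2.50 CPM in wild-type buds and 1.51, 0.0947 and 0.328 CPM in Aatoe2_IL buds, the tissue in which the authors listed it, a log2 fold change of -2.55 (SE 0.57). In apices, where it was not listed, IQD1 had 23 reads over the 3 wild-type libraries and 11 over the 3 Aatoe2_IL libraries, with a log2 fold change of -0.84 (SE 0.75; adjusted p = 0.611, edgeR). While the 6 genes had lower means in wild-type buds than in wild-type apices, IQD1 was higher there, by 2.53 on the log2 scale (SE 0.55; adjusted p = 0.00736, edgeR), a comparison that shares the wild-type bud libraries on which it was listed. It had only 7 to 9 reads in each wild-type apex library and passed the filter on low counts through wild-type buds. A higher value in buds was thus also favoured by the filter, and nothing is read from this call. The MYB34, MYB51 and MYB122 regulators of indole glucosinolates were not paired with an identifier and were not analysed here. The same holds for all 6 listed genes of tryptophan synthesis and for 11 of 12 listed genes of sulfate activation, AKN2 being the exception.

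Of 30 genes listed for aliphatic and benzyl glucosinolates 9 were paired with an identifier and 8 passed the filter, IPMI2 being the exception. In the apex 3 of these 8 passed and were lower in Aatoe2_IL (MYB28, SOT17 and SOT18), and in buds 4 did (IMD1, CYP79A2, CYP79C2 and FMOGS-OX6), in both cases in the tissue where the authors had listed them. Of all genes tested 0.809% and 1.97% passed and were lower, and since the listing chose these genes on the same differences nothing is read from the counts. SOT17 and SOT18, the sulfotransferases of aliphatic glucosinolates, are paralogs of SOT16 and may share reads with it. SOT18 had 11.9 ± 2.60 CPM in wild-type apices, beside 1.92 ± 1.40 CPM in those of Aatoe2_IL (SD, n = 3), a log2 fold change of -2.60 (SE 0.45), and SOT17 (Aa_G119000h1) had -1.41 (SE 0.28). In buds, where neither was listed, SOT18 had a log2 fold change of -0.85 (SE 0.42; adjusted p = 0.287, edgeR) and SOT17 one of -0.13 (SE 0.29; adjusted p = 0.844, edgeR), beside -2.09 for SOT16. Between wild-type tissues SOT17 was lower in buds, with a log2 fold change of -1.13 (SE 0.27; adjusted p = 0.0142, edgeR), while SOT18 had -0.66 (SE 0.39; adjusted p = 0.304, edgeR). This comparison shares the wild-type apex libraries on which both genes were listed, and high values there favour a lower value in buds. The call of SOT17 was lost without wild-type apex replicate 1, wild-type bud replicate 1 or wild-type bud replicate 2, 3 of its 14 alternatives, over which the adjusted p ranged from 0.000289 to 0.0656. MYB28, a regulator of aliphatic glucosinolate genes, had 67 reads over the 3 wild-type apex libraries and 0 over those of Aatoe2_IL, at least 19.6-fold lower. MYB29 (Aa_G76360h1), listed as lower in Aatoe2_IL apices, had 38 reads in wild-type apices and 1 in those of Aatoe2_IL. In buds, where MYB29 was not listed, these were 46 and 11. Every Aatoe2_IL library was below every wild-type library for MYB29 in both tissues, with few reads throughout. Of all genes tested 10.8% lay lower in Aatoe2_IL without overlap in the apex, and 10.8% in buds. MYB28 and MYB29 passed the filter on low counts only through wild-type libraries. Lower values in Aatoe2_IL were thus favoured by the filter, and nothing is read from them.

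Among 421 genes with an orthologue in the authors' lists and a mean of at least 1 CPM, CB5-C (Aa_G332690h1), a cytochrome b5, was the most like in pattern for 3 of the 6 genes. Pearson's r of log2(CPM + 0.5) over the 12 libraries was 0.993 with GSTF9, 0.979 with AKN2 and 0.971 with CYP79B2. SUR1 was the most like SOT16 (0.946) and second for CYP83B1 (0.981) and CYP79B2 (0.959). The gene most like CYP83B1 was Aa_G444290h1, orthologue AT5G21100 (0.991), and the third was MBP1 (Aa_G364650h1, 0.968), a myrosinase-binding protein, myrosinase being the enzyme that breaks glucosinolates down. CYP79B3, which had few reads, was most like Aa_G535000h1, orthologue AT3G13650 (0.934). All candidates came from lists chosen on these libraries for a genotype difference, so high values were favoured by the choice.

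Markers of other tissues also had different ranges in the genotypes, but only genes in the authors' lists of genotype differences could be named. LHCB1.3 and SEOR1 had been listed as higher in Aatoe2_IL buds, and SWEET12 as lower in Aatoe2_IL apices. Their differences in those tissues restate that choice. Of 5 green leaf markers 1 was paired with an identifier, LHCB1.3, a chlorophyll-binding protein of the light-harvesting antenna. It ran from 1456 to 2210 CPM in wild-type apices and from 2215 to 2996 CPM in Aatoe2_IL apices, and from 1690 to 1821 CPM and from 3034 to 4641 CPM in the respective buds. Its direction was thus opposite to that of the 6 genes, and replicate 1 lay below the mean of the other two libraries in all 4 groups. Of 8 phloem and vascular markers 2 were paired with an identifier, SEOR1, a filament protein of sieve elements, and the sucrose transporter gene SWEET12. Their summed level ran from 32.6 to 40.0 CPM in wild-type apices, from 16.3 to 26.0 CPM in Aatoe2_IL apices, from 3.64 to 8.17 CPM in wild-type buds and from 11.1 to 16.3 CPM in Aatoe2_IL buds. In the apex this sum was lower in Aatoe2_IL, as the 6 genes were, and in buds it was higher, unlike them. Most of the sum in buds was SEOR1, and SWEET12 lay lower there in Aatoe2_IL without overlap, with 14 reads over the wild-type bud libraries and 3 over those of Aatoe2_IL, of which replicate 2 had 0. LOX2, the one jasmonate and wounding gene paired with an identifier, had 17.3, 1.94 and 3.52 CPM in Aatoe2_IL apices and 21.9, 11.6 and 9.13 CPM in wild-type apices, and was likewise highest in replicate 1 in both. In buds LOX2 had the higher mean in Aatoe2_IL, with 30.8 ± 22.4 CPM beside 12.4 ± 1.18 CPM for wild type (SD, n = 3), and the groups overlapped. WRKY40, the one defence gene paired with an identifier, had 1.48, 7.61 and 0.423 CPM in wild-type apices and 0.956, 0 and 0.571 CPM in those of Aatoe2_IL. In buds WRKY40 was higher in every Aatoe2_IL library, with a mean of 2.12 ± 1.04 CPM beside 0.409 ± 0.187 CPM for wild type (SD, n = 3). Both were in the authors' list of genes higher in Aatoe2_IL buds, the direction opposite to that of the 6 genes, and WRKY40 was also in the list of genes lower in Aatoe2_IL apices. The part of these markers in the levels of the 6 genes was not tested.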

How the data were processed

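Poly(A) RNA was sequenced as single reads from libraries made with a directional kit, per the labels' protocols. DESeq, DESeq2, HTSeq 0.5.4p1 and STAR were used in roles not stated, per the submitters' processing notes. The deposited counts were whole reads per gene, not normalized. Neither the genome build nor the strand option used in counting is given in the sources used here, and overlapping and antisense genes are thus uncertain. The authors' deposited lists gave group means as normalized signal, a fold (Aatoe2_IL over wild type), its log2 and an adjusted p-value, and were limited to genes over a 2-fold difference with adjusted p below 0.05, per the file headers. Means recomputed with median-of-ratios size factors matched within 1% for 29 of 29 entries of the genes named.

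The 12 libraries entered 1 edgeR 4.0.16 fit (R 4.3.3; TMM, quasi-likelihood F test, default filter with a minimum count of 10, 19520 genes, 8 residual degrees of freedom, common biological coefficient of variation 0.130), with Benjamini-Hochberg adjustment over all genes tested and a threshold of 0.05. Each SE is the absolute log2 fold change over the square root of F and is approximate. Reads outside genes, 13.4% to 21.5% per library, were left out of library sizes. For a group at 0 a limit of 3 counts in all its libraries was used, which covers counting error only. The fit was tested on simulated data.

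The genes, the lists and the tests were chosen with earlier results of these data known. The text names all 6 genes, every member of the glucosinolate, tryptophan and sulfate lists with an identifier, up to 4 of each other list, and the 3 genes most like each in pattern, of which some are printed. MYB34, MYB51 and MYB122 were named after the lists had been matched. Same-numbered libraries were compared through correlations of their deviations from the group means over all genes tested. Between genotypes these were -0.31 to 0.12 and between wild-type tissues 0.07 to 0.39, so numbers were not taken as pairs. Between Aatoe2_IL tissues they were 0.28 to 0.45, so these were taken as pairs from the data alone, and a replicate block left 0 of the 6 genes called. The ranges of the wild-type and the Aatoe2_IL tissues overlap, so this division is weak. The main fit took no libraries as pairs. Alternatives were median-of-ratios scaling, no filter, DESeq2 1.42.0, a fit on the libraries compared, left-out libraries and replicate blocks.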

Additional observations from a re-analysis of the deposited data

Results flagged for a closer look

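For 2 genes beside the 6, the genotype effects in the 2 tissues differed by a test of the difference itself (edgeR interaction, over all genes tested). FMOGS-OX6, a flavin monooxygenase that oxidizes the side chain of aliphatic glucosinolates in Arabidopsis, had a difference of genotype effects, buds minus apex, of -1.81 in log2 (SE 0.28; adjusted p = 0.00897, edgeR). It ran from 15.4 to 19.5 CPM in wild-type buds and from 5.05 to 6.44 CPM in Aatoe2_IL buds, and the apex groups overlapped. Without both Aatoe2_IL replicate 1 libraries FMOGS-OX6 no longer passed (edgeR adjusted p = 0.0521), 1 of its 19 alternatives, over which the adjusted p ranged from 1.88e-05 to 0.0521. SEOR1, the sieve element gene, had a difference of 2.03 (SE 0.33; adjusted p = 0.0143, edgeR), lower in Aatoe2_IL in the apex and higher in buds, and passed in all 19 of its alternatives. Both were named in the authors' bud lists, so that this test is not independent of their choice.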

How the results depend on the processing

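The calls depended on the processing more than the fold changes did, and the cause was not tested. Of the 6 genes, 3 were called in the apex genotype comparison. This became 6 with no filter on low counts, without both Aatoe2_IL replicate 1 libraries, with the replicate block and without all 4 replicate 1 libraries, and 1 to 6 when single libraries were left out. In buds 0 were called, which became 2 with no filter, 1 with DESeq2, 1 with only the libraries compared, 5 without both Aatoe2_IL replicate 1 libraries, 5 with the replicate block, 5 without all 4 replicate 1 libraries, and 0 to 4 without single libraries. For the difference of the genotype effects 0 became 4 with the replicate block within genotype and 1 without all 4 replicate 1 libraries. Between wild-type tissues 1 became 0 with DESeq2, 2 with only the libraries compared, 2 without both Aatoe2_IL replicate 1 libraries, 3 with the replicate block, 6 with the replicate block within genotype, 4 without all 4 replicate 1 libraries, and 0 to 1 without single libraries. Between Aatoe2_IL tissues it was 0 throughout. Over all genes tested, 215 were called in the apex, against 35 without wild-type apex replicate 2 and 3481 without all 4 replicate 1 libraries. In buds 967 were called, against 1365 with the replicate block and 2117 without all 4 replicate 1 libraries. For the difference of the genotype effects 202 became 1986 with the replicate block within genotype. Between wild-type tissues 2184 became 4824 with that block and 2833 without all 4 replicate 1 libraries. Replicate numbers share only a number between genotypes and between wild-type tissues, so the block there is a hint from the data and not the design.

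The apex and bud genotype log2 fold changes of the 6 genes kept their sign under every alternative run. Signs turned elsewhere when single libraries were left out. For SOT17 in buds the genotype value ran from -0.39 to 0.085. The difference of the genotype effects ran from -0.036 to 1.14 for CYP83B1, from -0.0095 to 1.04 for GSTF9 and from -0.025 to 1.54 for SOT16. Buds against apex in Aatoe2_IL ran from -1.42 to 2.32 for CYP79B2, from -0.79 to 0.38 for CYP83B1, from -0.45 to 0.59 for GSTF9, from -1.01 to 0.55 for SOT16 and from -0.37 to 1.64 for AKN2. GSTF9 there was also 0.18 without both Aatoe2_IL replicate 1 libraries, 0.18 without all 4 replicate 1 libraries, 0.024 with the replicate block and 0.039 with that block within genotype. Depth limits CYP79B3, which had at most 27 reads in a library, and CYP79B2 and SOT16 in Aatoe2_IL, with as few as 3 and 4.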
